A study of Mus musculus with 14 samples.

Results

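Sult1a1 and Phyhd1 are 2 enzyme genes that were far higher in the hypothalamus of fasted than of fed mice, and Sult4a1 is a neuronal relative of Sult1a1 taken for contrast. These 3 genes, of 17097 genes tested, were listed by name. Sult1a1 and Phyhd1 were selected on their measured difference between fasted and fed mice, so that difference is given as a description with no test. The intervals given for it do not allow for this selection. All 3 genes were found on the arrays. The RNA came from whole hypothalamus of mice 12 weeks old on a mixed background of C57Bl/6J, FVB/N and 129. There were 4 groups, namely POMCMfn1KO mice fasted for 16 h (n = 3), control mice fasted for 16 h (n = 3), POMCMfn1KO mice fed at random (n = 4) and control mice fed at random (n = 4). POMCMfn1KO mice, called knockout mice here, lack Mfn1, a mitochondrial fusion gene, in neurons that express pro-opiomelanocortin (POMC), which are a small part of this tissue. The labels do not give the driver line or the alleles of the control mice, and nothing in them states how many mice went into an array. The p-values therefore rest on the spread of 14 samples, which may be technical in part. Mfn1 itself was at 9.04 to 9.11 in knockout fasted, 9.05 to 9.07 in control fasted, 9.03 to 9.12 in knockout fed and 8.99 to 9.10 in control fed arrays (knockout minus control 0.01 ± 0.03, SE, log2; adjusted p = 0.999 in limma), so in whole tissue it gives no check of the genotype labels.

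Cytosolic sulfotransferases transfer a sulfonate group from the donor PAPS (3'-phosphoadenosine-5'-phosphosulfate) to small molecules. Sulfation makes phenols, monoamines, steroids and iodothyronines more soluble and usually inactive at their receptors. SULT1A1 is the general phenol sulfotransferase of this family, while SULT4A1 is found mainly in neurons and has no well established substrate. PHYHD1 belongs to the iron and 2-oxoglutarate dependent dioxygenases and resembles phytanoyl-CoA hydroxylase (PHYH), the peroxisomal enzyme that starts the alpha-oxidation of branched-chain fatty acids. Its own physiological substrate is not settled.

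Values are log2 expression from RMA, so a difference of 1 is a doubling, and levels of different probe sets are not compared with each other. Each gene was represented by its probe set with the highest mean over the 14 arrays. Sult1a1 and Phyhd1 had 1 probe set each and Sult4a1 had 2. Medians of the arrays lay between 4.98 and 5.05, and the 23 control probe sets without a target had a median of 3.64, the level of background signal. The hypothalamic peptide genes Pmch (12.06 to 12.63), Hcrt (9.71 to 11.27) and Oxt (10.07 to 10.96) were high on every array. Others were lower, such as Trh (7.17 to 7.71) and Ghrh (4.93 to 6.15), and Pomc ran from 5.68 to 7.55 within control fed arrays. The hypothalamic transcription factor genes Nkx2-1 (3.95 to 4.36) and Otp (3.61 to 4.0) lay near the background. The log2 of the summed linear level of 13 hypothalamic markers was 13.61 to 13.87 in fasted and 13.0 to 13.9 in fed arrays. Of the 14 arrays, 7 carry low and 7 carry high numbers in their titles. All 6 fasted arrays and knockout fed replicate 1 are of the low series, so that single knockout array separates the fast from any difference between the series. In control mice all fasted arrays are of the low and all fed arrays of the high series. The fast and the series cannot be told apart there.

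Sult1a1 lay at 9.27, 9.49 and 9.04 in knockout fasted mice and at 9.55, 9.68 and 9.61 in control fasted mice. In fed mice it lay at 7.09, 6.91, 6.86 and 7.85 in the knockout group and at 6.98, 6.61, 6.43 and 6.51 in the control group. Every fasted array was above every fed array, with 1.19 log2 units between the lowest fasted and the highest fed value. The highest fed value belonged to knockout fed replicate 4, and in control mice alone the gap was 2.57. Averaged over genotypes, the level in fasted mice was higher by 2.54 ± 0.14 (SE, log2), a fold of 5.80 with a 95% interval of 4.67 to 7.20. Of all 17097 genes, 1.92% had all fasted arrays above all fed arrays, and the gene was chosen for this difference.

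Phyhd1 lay at 8.16, 8.26 and 8.17 in knockout fasted mice and at 8.29, 8.56 and 8.40 in control fasted mice. Its fed values were 7.09, 6.92, 6.59 and 7.16 in knockout mice and 6.77, 6.77, 6.49 and 6.31 in control mice. Here too no fasted array overlapped a fed one, and the gap was 1.00 over both genotypes and 1.52 in control mice. Of all genes 1.92% had all fasted arrays above all fed arrays, and Phyhd1 too was chosen for this difference. The averaged difference of fasted minus fed was 1.54 ± 0.10 (SE, log2), a fold of 2.92 with a 95% interval of 2.52 to 3.37.

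Sult4a1 lay at 10.82, 10.74 and 10.73 in knockout fasted mice and at 10.90, 10.81 and 10.80 in control fasted mice. The fed values were 10.78, 10.75, 10.80 and 10.90 in knockout mice and 10.81, 10.87, 10.83 and 10.81 in control mice. Fasted and fed arrays overlapped fully, and all 14 values spanned 0.17 log2 units. The averaged difference was -0.02 ± 0.04 (SE, log2), with a 95% interval of -0.10 to 0.06. The second probe set of Sult4a1 lay between 9.19 and 9.36 in fasted mice and between 9.13 and 9.33 in fed mice, and its averaged difference was 0.08. In control mice the second probe set averaged 9.32 ± 0.07 in fasted (n = 3) and 9.18 ± 0.06 in fed mice (SD, n = 4).

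**Figure D1:**
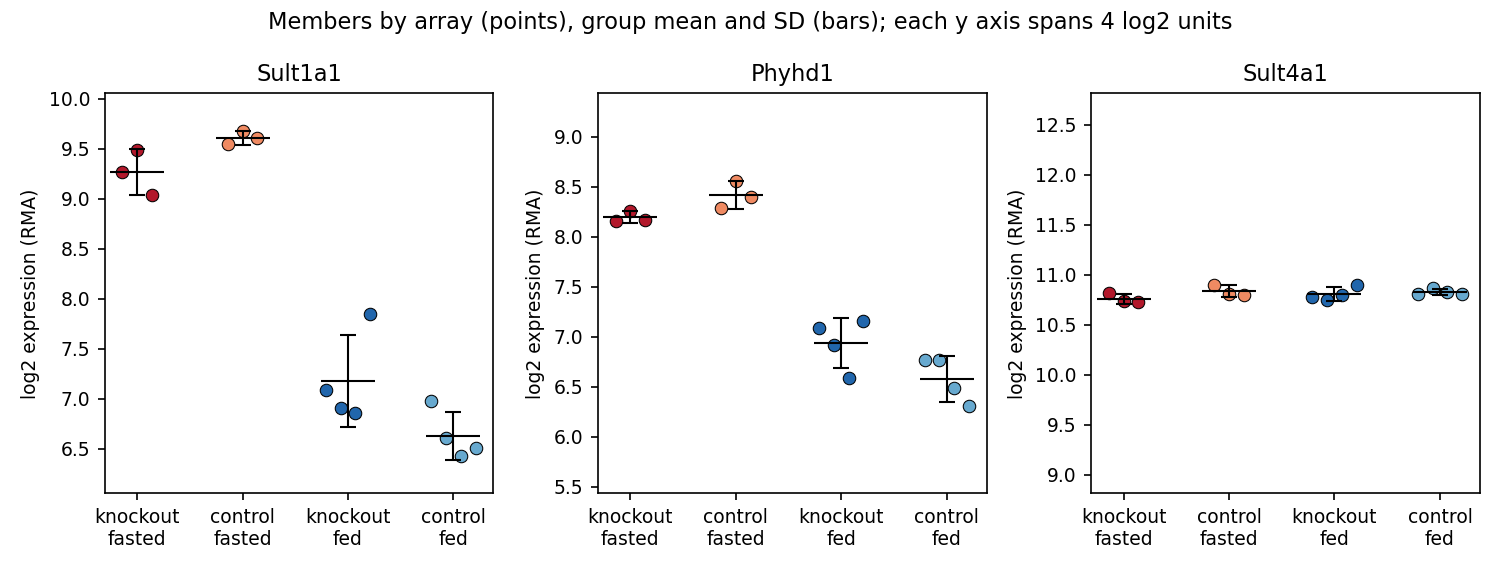
Log2 expression (RMA, vertical axis) of Sult1a1, Phyhd1 and Sult4a1 in the 4 groups. Points are single arrays, and bars give the group mean and SD (n = 3 for fasted and n = 4 for fed groups). The fasted arrays of Sult1a1 (9.04 to 9.68) and Phyhd1 (8.16 to 8.56) sit above all fed arrays (6.43 to 7.85 and 6.31 to 7.16), while Sult4a1 stays between 10.73 and 10.90.

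Knockout fed replicate 1, the fed array among the low title numbers, lay at the level of the other fed arrays for both enzymes. It had 7.09 for Sult1a1, which is 1.95 below the lowest fasted array, and 7.09 for Phyhd1, which is 1.07 below. When the fit also held a term for low or high title numbers, the averaged fasting difference was 2.64 ± 0.32 for Sult1a1 and 1.37 ± 0.21 for Phyhd1 (SE, log2). That term rests only on knockout fed replicate 1 against the other knockout fed arrays, also where it is applied to control mice.

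The order of the groups was the same for both enzymes. Sult1a1 averaged 9.27 ± 0.23 in knockout fasted and 9.61 ± 0.07 in control fasted mice (SD, n = 3 each), and 7.18 ± 0.46 in knockout fed and 6.63 ± 0.24 in control fed mice (SD, n = 4 each). Phyhd1 averaged 8.20 ± 0.06 in knockout fasted and 8.42 ± 0.14 in control fasted mice, and 6.94 ± 0.25 in knockout fed and 6.58 ± 0.23 in control fed mice. For both genes the knockout mean was thus the lower one in fasted mice and the higher one in fed mice. Both genes were thus less far apart between fasted and fed mice in the knockout than in the control. The 3 knockout fasted arrays lay below the lowest control fasted array for either gene. The 4 knockout fed arrays lay above the mean of the control fed arrays for either gene, 2 of them above the highest control fed array for Sult1a1 and 3 for Phyhd1. Sult4a1 also had 2 of 3 knockout fasted arrays below the lowest control fasted array. In fed mice 3 of its 4 knockout arrays lay below the lowest control array and 1 above the highest. The share of all genes with such separations between genotypes was not computed, so these positions are a description only.

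The question of this design is whether the loss of Mfn1 in POMC neurons alters hypothalamic expression or its response to fasting. The genotype was not used to choose the genes, so these differences were tested in limma over all 17097 genes. In fasted mice Sult1a1 was at -0.35 ± 0.22 (SE, log2, knockout minus control) and Phyhd1 at -0.22 ± 0.15 (adjusted p = 1.0 each). In fed mice Sult1a1 was at 0.55 ± 0.19 and Phyhd1 at 0.35 ± 0.13 (adjusted p = 0.995 each). The 95% intervals in fed mice, not adjusted for the number of genes, were 0.14 to 0.95 for Sult1a1 and 0.08 to 0.63 for Phyhd1. Averaged over feeding states the differences were 0.10 ± 0.14 and 0.07 ± 0.10 (adjusted p = 0.999 each), with 95% intervals of -0.21 to 0.41 for Sult1a1 and -0.14 to 0.28 for Phyhd1. No genotype difference of either enzyme passed, and only 0.00585% of all genes passed in the average and 0.00585% in fed mice, namely the gene Nrip2 in both (named after its values were seen). In fasted mice 0.0% passed in limma, with 661 genes at an unadjusted p under 0.05, also fewer than the average by chance among 17097 genes.

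The fasting difference itself was 2.09 ± 0.20 in knockout mice and 2.98 ± 0.20 in control mice for Sult1a1 (SE, log2), or folds of 4.26 and 7.89. For Phyhd1 it was 1.26 ± 0.14 in knockout mice and 1.83 ± 0.14 in control mice, or folds of 2.39 and 3.56. In control mice the fasting difference of either gene cannot be told apart from a difference between low and high title numbers. The interaction, the fasting difference of knockout minus that of control mice, was -0.89 ± 0.29 for Sult1a1 and -0.57 ± 0.19 for Phyhd1. Neither passed over all genes (adjusted p = 1.0 each in limma), and the 2 values share their arrays. In this test 0.0% of genes passed, while 654 had an unadjusted p under 0.05. The 95% intervals, which are not adjusted for the number of genes, ran from -1.52 to -0.27 for Sult1a1 and from -0.99 to -0.16 for Phyhd1. A smaller fasting difference in knockout mice was therefore not established here, and the intervals do not show that the differences were alike. Without knockout fed replicate 4 the difference of Sult1a1 in fed mice was 0.32 and its interaction -0.67.

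Sult4a1 was at -0.07 ± 0.06 in fasted mice and at -0.02 ± 0.05 in fed mice (knockout minus control), with an average of -0.05 ± 0.04 and an interaction of -0.05 ± 0.07. None of these passed (adjusted p = 1.0, 0.995, 0.999 and 1.0, in that order, in limma). The 95% interval of its averaged genotype difference ran from -0.13 to 0.03.

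**Figure D2:**
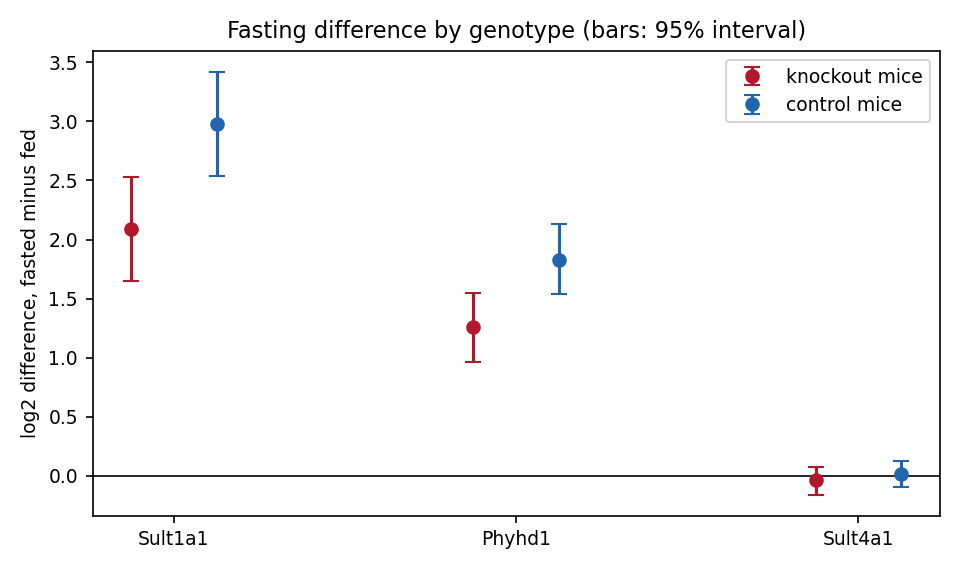
Log2 difference of fasted minus fed mice (vertical axis) in knockout and in control mice for each gene, with 95% intervals of the limma fit as bars. The intervals of Sult1a1 and Phyhd1 do not allow for their selection on this difference. Sult1a1 sits at 2.09 in knockout and 2.98 in control mice, Phyhd1 at 1.26 and 1.83, and Sult4a1 at -0.04 and 0.01.

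Sult1a1 and Phyhd1 shared the top of their order of single arrays. Among the fasted arrays both genes were highest in control fasted replicate 2, then in control fasted replicates 3 and 1 and in knockout fasted replicate 2. Among the fed arrays both were highest in knockout fed replicate 4 and second in knockout fed replicate 1. Lower in the order they differed, as in knockout fasted replicates 1 and 3 and in control fed replicates 3 and 4, which were in opposite order. Pearson's r between the genes was 0.819 over the 8 fed arrays, 0.804 over the 7 fed arrays without knockout fed replicate 4, and 0.831 over the 6 fasted arrays. These values hold both genotypes and are given as a description. After subtraction of the 4 group means r was 0.672 over 14 arrays, which placed Phyhd1 at rank 414 among 17096 genes for Sult1a1.

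**Figure D3:**
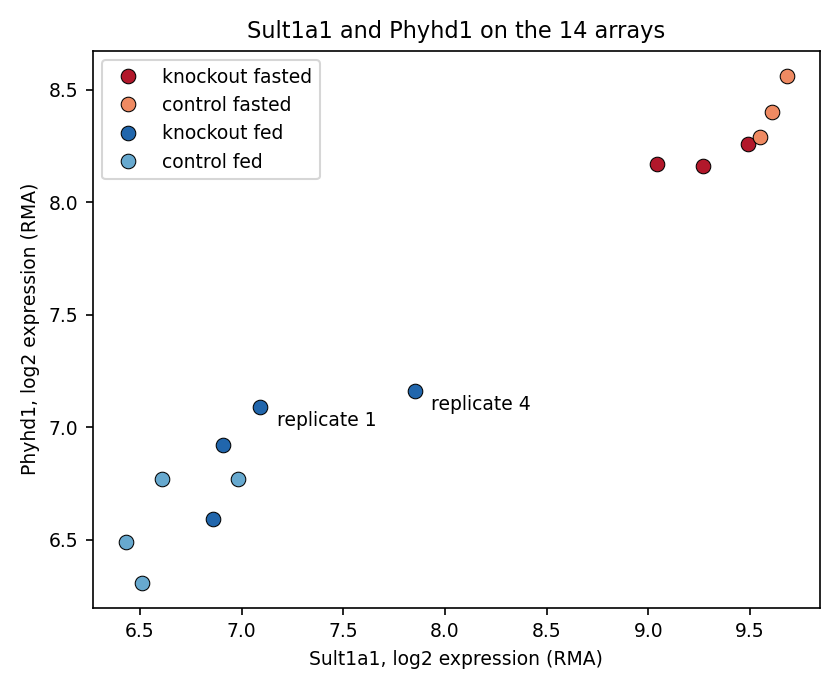
Sult1a1 (horizontal axis) against Phyhd1 (vertical axis), both log2 expression, with 1 point for each of the 14 arrays. The 6 fasted arrays lie apart at the upper right. Knockout fed replicate 4 has the highest fed values of both genes (7.85 and 7.16), and knockout fed replicate 1, with a low title number, lies among the fed arrays.

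By Pearson's r over the 14 arrays, Sult1a1 was the gene most like Phyhd1 among 17096 others, and Phyhd1 was second for Sult1a1 (r = 0.986). The genes most like Sult1a1 were Scrg1 (r = 0.989), Phyhd1, Fam107a (0.983), Mfsd2a (0.980) and Fgfr3 (0.980). Those most like Phyhd1 were Sult1a1, Fam107a (0.983), Scrg1 (0.980), Mfsd2a (0.980) and Mt1 (0.968). Scrg1 was described as a scrapie-responsive gene, Mfsd2a transports lysophospholipids at the blood-brain barrier, and Mt1 encodes a metallothionein. Fgfr3 is a growth factor receptor found on astrocytes and is among the astrocyte markers used below. Scrg1 lay between 9.21 and 9.59 in fasted and between 8.32 and 8.73 in fed mice, a difference of 0.86 ± 0.06 (SE, log2). Fam107a lay between 12.05 and 12.23 in fasted and between 11.47 and 11.83 in fed mice. The distance between fasted and fed arrays sets most of this likeness. After subtraction of the group means the genes closest to Sult1a1 were Ccn2 (0.953), Ltc4s (0.933), Ebi3 (0.933), Esrp1 (0.922) and Ticrr (0.896), and those closest to Phyhd1 were B4galnt1 (0.905), Pebp1 (0.870), Polr2a (0.857), Rasgrp1 (0.856) and Dkk3 (0.843). For Sult4a1 the closest genes over the 14 arrays were Ndufc1 (0.865), Gp6 (0.795), Stil (0.792), Aldoa (0.792) and Mgst3 (0.791), and after subtraction of the group means Ppm1k (0.916), Wnt3 (0.890), Gabrd (0.890), Wdr31 (0.867) and Anxa6 (0.863). The lists with and without group means shared no gene for any of the 3. Knockout fed replicate 4 weighs heavily in the second list of Sult1a1, with 7.85 against 6.86 to 7.09 in the other arrays of its group. Some listed genes were dim. Esrp1 lay at 3.77 to 3.95 in fasted and 3.82 to 4.25 in fed mice, and Ticrr at 4.26 to 4.35 and 4.09 to 4.63. Gp6 lay at 3.82 to 4.12 and 3.81 to 4.07. Each list holds the 5 highest r among 17096 genes, so high values arise by selection.

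Because both enzymes differed in the same direction, the annotated promoter windows of RefSeq (GRCm38.p6, 250 bases before to 50 after a start site) were read for the 2 genes. The window of Sult1a1 lies at chr7:126676369-126676668 on the minus strand. Phyhd1 has 3 windows on the plus strand of chromosome 2, of which the third overlaps the second. The first lies at chr2:30265953-30266252 and the second at chr2:30266471-30266770. Sult4a1 is on chromosome 15. Capitals mark matches, on either strand, to a short motif of the glucocorticoid receptor, TGTTCT, the only one of 3 searched motifs that was found.

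Sult1a1: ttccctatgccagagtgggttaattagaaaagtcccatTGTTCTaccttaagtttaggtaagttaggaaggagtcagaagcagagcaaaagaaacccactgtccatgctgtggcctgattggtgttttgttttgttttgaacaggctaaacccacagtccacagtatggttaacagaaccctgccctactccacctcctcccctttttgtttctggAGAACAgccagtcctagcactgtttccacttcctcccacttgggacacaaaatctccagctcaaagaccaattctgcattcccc

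Phyhd1 first window: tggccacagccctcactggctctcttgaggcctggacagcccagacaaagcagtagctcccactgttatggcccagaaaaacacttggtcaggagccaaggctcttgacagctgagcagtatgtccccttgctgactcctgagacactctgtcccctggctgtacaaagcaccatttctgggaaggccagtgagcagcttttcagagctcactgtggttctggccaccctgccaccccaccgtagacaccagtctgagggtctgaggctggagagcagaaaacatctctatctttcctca

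Phyhd1 second window: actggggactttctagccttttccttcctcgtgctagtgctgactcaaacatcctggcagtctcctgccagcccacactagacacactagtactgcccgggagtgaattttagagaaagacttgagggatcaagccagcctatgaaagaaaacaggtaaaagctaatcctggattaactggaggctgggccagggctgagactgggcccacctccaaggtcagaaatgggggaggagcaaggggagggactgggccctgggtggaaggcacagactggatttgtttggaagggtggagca

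The Sult1a1 window held 2 of them, at -212 and -34 from the start site, in opposite orientations. The 3 windows of Phyhd1 held 0. Of all 32851 windows 19.0% held at least 1 and 2.51% held at least 2, so a single match of this kind is common and 2 in a window are less so. The FOXO motif TGTTTAC, found in 3.65% of windows, and the E-box CACGTG, found in 7.15%, were in none of the windows of either gene. A match is a string of letters and not a bound site, and its absence says nothing on sites elsewhere.

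The genes beside the members on their chromosomes were compared next. For Sult1a1 on chromosome 7 the 3 nearest measured genes on each side ran from -0.28 to 0.15 (log2, fasted minus fed). Of these 6, Bola2 rose by 0.15 ± 0.04 (adjusted p = 0.0318 in limma) and Coro1a, an actin-binding gene of leukocytes and microglia, fell by 0.28 ± 0.05 (adjusted p = 0.00267, and -0.17 ± 0.10 with adjusted p = 0.561 with the term for title numbers). With all its probe sets averaged Coro1a was also at -0.17 (adjusted p = 0.00509). For Phyhd1 on chromosome 2 the neighbours ran from 0.03 to 0.57. Lrrc8a, the directly preceding gene and a subunit of the volume-regulated anion channel, rose by 0.57 ± 0.06 (adjusted p = 0.000165), and Dolk, the directly following gene, a kinase of dolichol, rose by 0.20 ± 0.06 (adjusted p = 0.0438). None of the 6 neighbours of Sult4a1 passed. In all 3 of 18 neighbours rose and 1 fell, where 5.14% of all genes rose and 4.90% fell in this comparison. The call of Bola2 held in 9 of 21 alternatives and that of Dolk likewise in 9 of 21. That of Lrrc8a held in 20 of 21, with a highest adjusted p of 0.132 in limma.

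**Figure D4:**
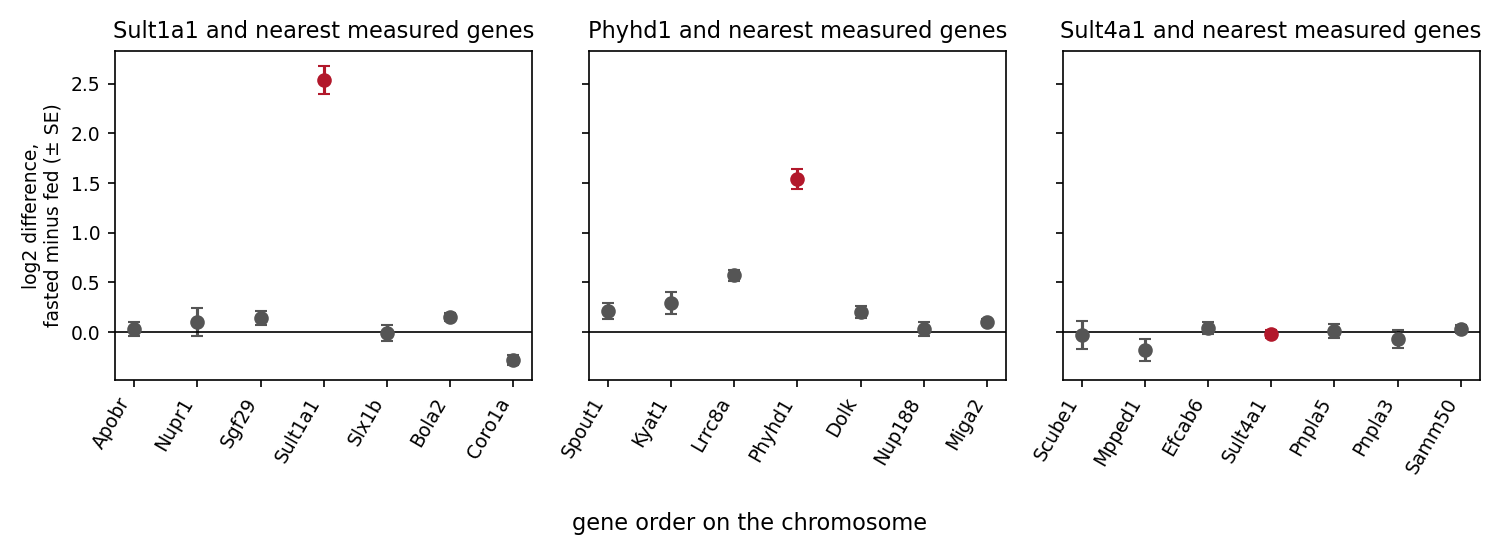
Log2 difference of fasted minus fed mice, averaged over genotypes (vertical axis, bars are SE), of each gene and its 3 nearest measured genes on each side in chromosomal order (horizontal axis). Sult1a1 stands at 2.54 among neighbours of -0.28 to 0.15, and Phyhd1 at 1.54 beside Lrrc8a at 0.57.

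In the rest of the sulfotransferase family no gene passed between fasted and fed mice. Of 11 other cytosolic sulfotransferases measured, 0 rose and 0 fell in limma. Their log2 differences lay between -0.11 (Sult1e1, the estrogen sulfotransferase) and 0.13 (Sult1c2), with a median of -0.01, against 0.003 over all genes. Sult1b1 was at 0.09 ± 0.05, Sult1d1 at 0.04 ± 0.05 and Sult2b1, the cholesterol sulfotransferase, at -0.10 ± 0.09. Sult1c1, Sult2a2, Sult2a8, Sult3a1, Sult5a1 and Sult6b1 lay between -0.05 and 0.05. Of these 11 genes, 10 had a mean below 5, nearer to the background probe sets, where RMA values compress differences. Sult2b1 was the 1 above that level, with group means of 5.13 to 5.31.

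The relatives of Phyhd1 did not pass either. Of 10 other genes of the phytanoyl-CoA hydroxylase family and of alpha-oxidation, 0 rose and 0 fell. Phyh, the hydroxylase itself, was at -0.02 ± 0.04 and Phyhipl at -0.05 ± 0.05. Hacl1, the lyase of the next step, was at -0.12 ± 0.08, the aldehyde dehydrogenase Aldh3a2 at 0.07 ± 0.05 and Pex7, the import receptor that brings PHYH into peroxisomes, at -0.04 ± 0.04. The acyl-CoA synthetase Slc27a2 (-0.09), the racemase Amacr (-0.11), the oxidases Acox2 (-0.14) and Acox3 (0.21) and the thiolase Scp2 (0.01) did not pass. The median was -0.05. Unlike the other sulfotransferases, 9 of these 10 had means above 5.

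**Figure D5:**
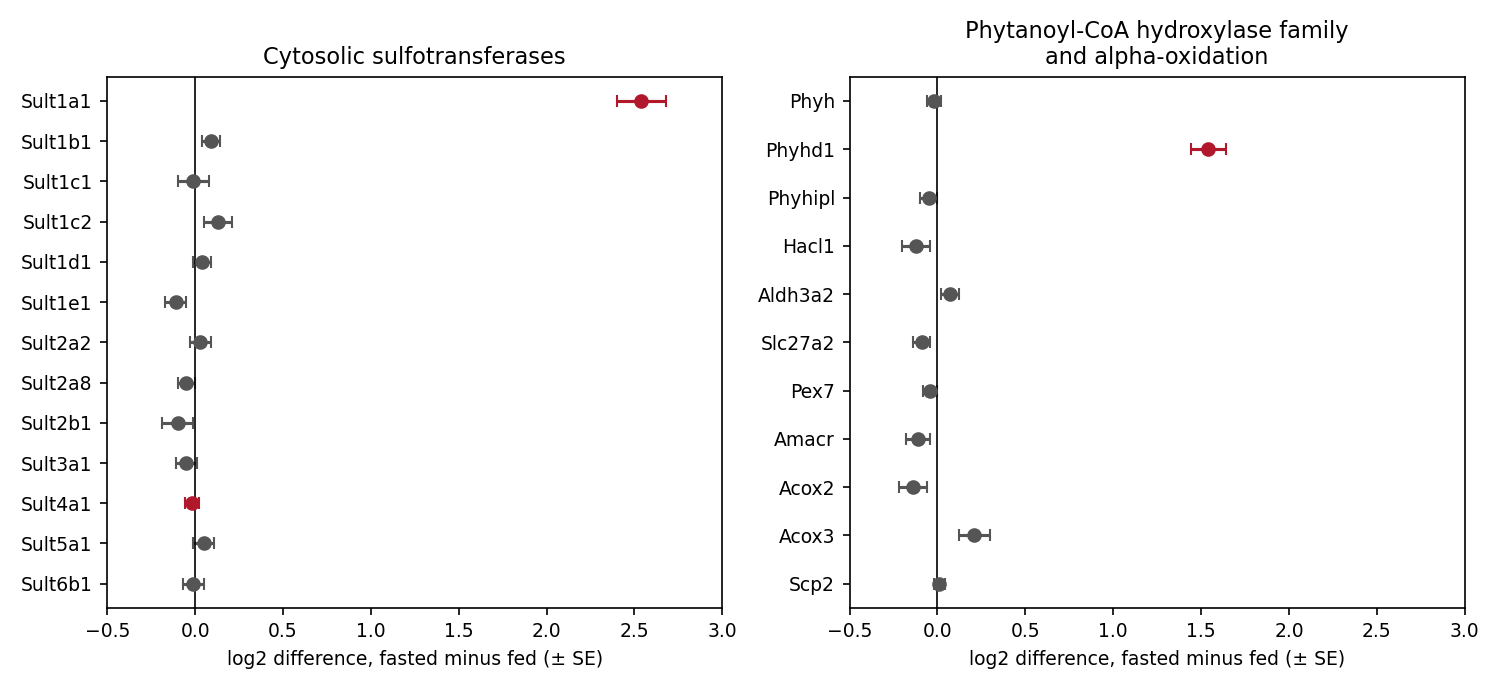
Log2 difference of fasted minus fed mice, averaged over genotypes (horizontal axis, bars are SE), for the measured cytosolic sulfotransferases (left) and the phytanoyl-CoA hydroxylase family with alpha-oxidation genes (right). Red marks Sult1a1 (2.54), Sult4a1 (-0.02) and Phyhd1 (1.54), and the other genes lie between -0.14 and 0.21.

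Genes that supply or reverse sulfation were read against the 5.14% of all genes that rose and the 4.90% that fell. Of 15 genes of sulfate activation, transport and oxidation, none rose and Tst fell by 0.83 ± 0.06 (adjusted p = 6.64e-06 in limma). Tst encodes thiosulfate sulfurtransferase, a mitochondrial enzyme of sulfide and cyanide handling, and not a step of PAPS synthesis. It lay between 7.27 and 7.75 in fasted and between 8.22 and 8.43 in fed mice. Of 12 sulfatase genes Sulf2, which trims heparan sulfate outside the cell, rose by 0.21 ± 0.05 (adjusted p = 0.0227). It was at 0.08 and did not pass when all probe sets of the gene were averaged, nor without control fasted replicate 1 (0.20) or 3 (0.18), without knockout fasted replicate 2 (0.17) or with the term for title numbers (0.22). Of 28 sulfotransferases of the Golgi 3 rose and 1 fell, against the same 5.14% and 4.90% of all genes. Chst8, which sulfates the sugars of pituitary hormones, rose by 0.35 ± 0.07 (adjusted p = 0.00698, and 0.12 ± 0.13 with adjusted p = 0.82 with the term for title numbers) and Tpst2, a tyrosylprotein sulfotransferase, by 0.32 ± 0.08 (adjusted p = 0.0189). Chst13 (0.20 ± 0.06) rose and Chst14 (-0.22 ± 0.06) fell, in 8 and 5 of 20 alternatives only, and Chst14 was at -0.04 with the term for title numbers.

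Among 31 other conjugation enzymes 6 rose and 2 fell. Ugt1a6a, a glucuronosyltransferase for phenols, lay between 6.42 and 6.94 in fasted and between 5.69 and 6.04 in fed mice. It rose by 0.84 ± 0.08 (adjusted p = 3.49e-05), although genes of the Ugt1a locus share exons and may not be told apart. The glutathione transferase Gstk1 rose by 0.32 ± 0.05 (adjusted p = 0.00259) and the membrane-bound Mgst1 by 0.27 ± 0.05 (adjusted p = 0.00742, and 0.10 when all its probe sets were averaged). The difference of Mgst1 was 0.07 in knockout and 0.46 in control mice, and its interaction did not pass. Ugt8a, which attaches galactose to ceramide in myelin-forming cells, fell by 1.01 ± 0.11 (adjusted p = 0.000185). Over all genes 5.14% rose and 4.90% fell.

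Phyhd1 was also set beside 46 other 2-oxoglutarate dependent dioxygenases, of which 6 rose and 2 fell, where 5.14% of all genes rose and 4.90% fell. Bbox1, the last enzyme of carnitine synthesis, rose by 0.59 ± 0.12 (adjusted p = 0.00805). The nucleic acid demethylase Alkbh1 rose by 0.52 ± 0.11 (adjusted p = 0.0134, and 0.26 with the term for title numbers), and the histone demethylase Kdm3a by 0.26 ± 0.06 (adjusted p = 0.0138). Riox2, a ribosomal oxygenase, fell by 0.52 ± 0.08 (adjusted p = 0.00235, and -0.34 ± 0.17 with adjusted p = 0.52 with the term for title numbers). With all its probe sets averaged Riox2 was at -0.33 (adjusted p = 0.01). The median of the list was 0.02. In all 7 lists together 16 of 153 genes rose and 6 fell, against 5.14% and 4.90% of all genes. With the term for title numbers 0 passed in either direction, and the SE was wider. Tst was then at -0.72 ± 0.13 (adjusted p = 0.0735) and Ugt1a6a at 0.93 ± 0.16 (adjusted p = 0.0701). No gene of the 7 lists passed the averaged genotype test or the interaction.

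Markers of several cell types differed between fasted and fed arrays along with the 2 enzymes, and in bulk tissue fewer cells of a type and less RNA per cell cannot be told apart. Of all genes 5.14% rose and 4.90% fell, and of 10 astrocyte markers 4 rose and 1 fell. Their mean centred level was 0.01 to 0.24 in fasted and -0.13 to -0.04 in fed arrays. The log2 of their summed linear level was 14.08 to 14.19 in fasted and 13.97 to 14.05 in fed arrays. Of 7 microglial markers 4 fell (summed level 10.14 to 10.48 in fasted and 10.45 to 10.69 in fed arrays). Of 10 endothelial markers 4 fell (11.45 to 11.83 against 11.51 to 11.91), and of 6 mural cell markers 2 fell (10.88 to 10.94 against 10.88 to 11.17). Of 9 oligodendrocyte markers 2 rose and 3 fell (13.90 to 14.06 against 13.95 to 14.08). Neuronal markers, of which 0 of 8 passed, stayed between 14.59 and 14.64 in fasted and between 14.61 and 14.64 in fed arrays. The part of these differences in the values of Sult1a1 and Phyhd1 was not tested. The medians of these lists lay between -0.52 and 0.08 (log2, fasted minus fed).

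Choroid plexus markers varied widely within groups, with summed levels of 9.87 to 13.23 in fasted and 9.90 to 13.46 in fed arrays, and 0 of 8 passed. Their mean centred level was highest in knockout fed replicate 4, at 1.5, the array with the highest fed values of Sult1a1 and Phyhd1. It was -1.21 in knockout fed replicate 1, which had the second highest fed values of both. After subtraction of the group means, r with this level was 0.46 for Sult1a1 and 0.09 for Phyhd1. Over all marker lists r ran from -0.52 (neurons) to 0.54 (meninges and fibroblasts) for Sult1a1. For Phyhd1 it ran from -0.48 (ependymal cells) to 0.43 (tanycytes). A link to any of these was not tested. With the choroid plexus level as a covariate, a setting chosen after the data were seen, the averaged fasting difference was 2.50 ± 0.14 for Sult1a1 and 1.54 ± 0.10 for Phyhd1. The genotype difference of Sult1a1 (knockout minus control) was -0.55 ± 0.23 in fasted mice and 0.35 ± 0.21 in fed mice with it. Without it these were -0.35 ± 0.22 and 0.55 ± 0.19. The average was -0.10 ± 0.18 with it and 0.10 ± 0.14 without, and the interaction -0.90 ± 0.27 and -0.89 ± 0.29. None of these passed. Such a shift means that the choroid plexus level differed between the genotypes as well as within groups. Its part in the genotype differences was not tested.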

How the data were processed

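Hypothalamic RNA (150 ng per array, per the labels' protocols) was hybridized to Affymetrix arrays. The deposited values are log2 expression values that the authors made with RMA and the affy package, per the submitters' processing notes. No versions are stated there. RMA corrects background, equalizes the distributions of the arrays and summarizes probe sets, which compresses differences of dim genes. Of 45141 probe sets 28898 named 1 gene in the platform annotation, 551 several and 15692 none, and only the first were used. RefSeq (GRCm38.p6) gave names, gene order and promoters.

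The model, with 1 coefficient per group, was run in limma 3.58.1 under R 4.3.3 (residual df 10, prior df 3.27), two-sided, with Benjamini-Hochberg adjustment over 17097 genes and a threshold of 0.05. Errors are SE of this fit, or SD between arrays where stated. In simulated data with 200 genes changed by 0.5 log2 units, 92.5% were recovered for the averaged fasting contrast, 85.0% for genotype and 43.5% for the interaction. With a change of 1.0 the shares were 100.0%, 98.5% and 88.5%. The simulated noise was independent between genes, and each share is an average over genes of all spreads. With fewer changed genes than 200 the adjusted threshold is stricter. The shares are therefore not the power of the genotype and interaction tests for Sult1a1 or Phyhd1.

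The genes and lists were chosen with earlier results of these data known. Named beside them were all measured genes of both families, up to 4 passing genes of each other list by smallest p, the 5 most alike genes by r and the 3 nearest genes on each side. Alternatives were the mean of probe sets, a filter on the 40% dimmest genes, a trended and robust prior, array weights, 2-group fits, quantile normalization, the number series and each array left out. The number of arrays limits the precision.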

Additional observations from a re-analysis of the deposited data

Results flagged for a closer look

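Among 76 groups of 4 arrays examined, 5 had 1 array far from the other 3, where chance gives about 1 in 20. Sult1b1 was at 3.70 in control fed replicate 3, against 3.86 to 3.89 in the other control fed arrays. Sult3a1 was at 3.78 in the same array, against 3.48 to 3.49. Sult6b1 was at 3.98 in knockout fed replicate 4, against 3.71 to 3.74. These 3 lie near the background level. Pex7 reached 9.16 in knockout fed replicate 1, where its group otherwise lay at 8.98 to 9.01, and Acox3 at 4.98 in knockout fed replicate 3, against 5.43 to 5.51. None of the values belongs to Sult1a1, Phyhd1 or Sult4a1.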

How the results depend on the processing

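Each gene's differences were computed under 7 other settings, 1 chosen after the data were seen (the choroid plexus score) and 14 fits that left out 1 array. The fits of only the compared groups gave no value for averaged differences and the interaction. For Sult1a1 the averaged fasting difference stayed between 2.48 and 2.65 (log2) over the left-out fits, and for Phyhd1 between 1.49 and 1.58. Where a value moved by more than 1 SD between replicates, it was in control mice, at 1.63 for Phyhd1 with the number series and at 0.07 for Sult4a1 with the mean of its probe sets. No genotype or interaction value of the 3 genes passed in any setting run, with adjusted p of 0.708 to 1.0, and signs were read only for values beyond 1 SE. The averaged genotype difference of Sult1a1 was between -0.01 and 0.16 over the left-out fits.

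Of the pathway list genes, 16 rose and 6 fell. Over the left-out fits these counts ran from 10 (without knockout fasted replicate 2) to 20 and from 3 (without control fasted replicate 2, control fed replicate 3 or knockout fed replicate 2 or 3) to 9, and with the number series both were 0. Of 376 alternative values of the 18 other named genes past the threshold, 305 kept their call, 71 lost it and 0 changed sign with a call. No paired analysis was possible because the numbers in the titles differ on every array. Dim genes, such as most sulfotransferases, limit what these arrays can show.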
